A study of Mus musculus with 2 samples.

Results

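The cells described here are Cxcl12-abundant reticular (CAR) cells of mouse bone marrow that held Adipoq transcripts and no Alpl transcript. Adipoq encodes the hormone adiponectin and Alpl encodes tissue-nonspecific alkaline phosphatase, an enzyme of mineralising cells. They numbered 4110 of the 20654 cell barcodes in the series, 2060 of 10046 in the chase library and 2050 of 10608 in the pulse library. Members were chosen on counts of UMIs, the tags that mark single captured RNA molecules. A member had 500 or more genes and 1000 or more UMIs, less than 10% of them mitochondrial, at least 30 Cxcl12 UMIs per 10000, at least 2 Adipoq UMIs and no Alpl UMI. It also had no Ptprc and no Cdh5 UMI (blood and endothelial markers) and at most 3 UMIs of the macrophage genes C1qa, C1qb and C1qc together. It held at most 1 UMI of Mrap, Cfd and Fndc1, under 5 of the interferon-induced genes Ifit1, Ifit3 and Rsad2, and under 3 of the cycling genes Mki67 and Top2a. Levels of these selecting genes are therefore given as a description of the choice.

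The cells came from male mice with Adipoq-CreERT2, a recombinase driven by the Adipoq promoter and active only with tamoxifen, and Ai9, a reporter allele that expresses tdTomato permanently after recombination. All mice received oral tamoxifen on 3 consecutive days at 8 weeks of age, and bone was taken 4 weeks afterwards for the chase library and 24 h afterwards for the pulse library, so the chase mice were also older. Bright tdTomato-positive cells were sorted from enzyme-digested endosteal bone of femur and tibia after the shaft marrow had been flushed out, and made up 0.29% of all cells in the chase sample and 0.01% in the pulse sample. The series used 4 mice, and the sources used here do not say how many went into each library. With 1 library per group, no difference between chase and pulse has a replicate check, no test was possible, and all intervals are 95% intervals that cover counting error only.

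CAR cells are perivascular stromal cells of the marrow that surround sinusoids and feed blood-forming cells with the chemokine CXCL12 and with stem cell factor, the product of Kitl. Most carry the leptin receptor, and a large fraction of them transcribe genes of the fat lineage, such as Adipoq and Lpl, without storing lipid droplets. Other CAR cells lie towards the bone lineage and express Alpl, Wif1 and Spp1, and the boundary between these states is the axis along which the cells were separated here.

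Each of the 9 selection steps left the chase and pulse libraries with similar numbers. Of 8445 chase and 9390 pulse cells of sufficient quality, 4655 and 4877 had enough Cxcl12, and 3525 and 3619 were left once Adipoq was required. Excluding every cell with an Alpl UMI left 2339 chase and 2398 pulse cells, and the last 3 steps left the members. Members made up 24.4% (exact binomial interval 23.5 to 25.3) of the quality cells in the chase library and 21.8% (21.0 to 22.7) in the pulse library, and such shares depend on the sort gate as well as on the tissue. The median member had 6192 UMIs and 2413 genes in the chase library and 7670 UMIs and 2880.5 genes in the pulse library, with ranges of 1005 to 23716 and 1007 to 30830 UMIs. The summed depth was 12970130 UMIs for chase and 15914628 for pulse members. The libraries shared 52 barcodes, which 6 chase and 3 pulse members carried. Doublets were not removed, and a doublet caller marked only 2 chase and 4 pulse members.

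Absence of an Alpl UMI depended on depth. Among cells that met every other criterion, 78.5% of chase cells under 4000 UMIs had no Alpl UMI, 68.9% of those between 4000 and 8000, and 55.6% of those with 8000 or more. The same shares were 78.5%, 72.7% and 60.3% in the pulse library. With each cell reduced at random to 3000 UMIs, the share was 77.5% in the chase library and 80.0% in the pulse library. The class therefore includes cells in which a low Alpl level went uncounted. Levels are given as CPM, the UMIs of a gene summed over the cells of a class per 1000000 UMIs of that class. Cells with exactly 1 Alpl UMI, just outside the limit, numbered 535 in the chase and 463 in the pulse library. They had Lepr at 1078 CPM in chase and 680 in pulse and Kitl at 2007 and 1375, compared with 1191 and 730 for Lepr and 2135 and 1470 for Kitl in the members. Wif1, a secreted Wnt inhibitor of the osteogenic CAR state, stood at 259 and 140 CPM in these neighbours, against 192 and 73.1 in the members.

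The Adipoq limit had close neighbours too. The 98 chase and 76 pulse members with exactly 2 Adipoq UMIs were shallow, with median depths of 2893.5 and 3425 UMIs, and had Lepr at 1351 and 680 CPM. The 102 chase and 80 pulse cells with 1 Adipoq UMI, just outside, had median depths of 2374.5 and 2848 UMIs and Lepr at 1294 and 744. At the limit on Mrap, Cfd and Fndc1, 290 chase and 319 pulse members held 1 UMI, and 85 chase and 125 pulse cells were left out with 2. The Cxcl12 limit fell in a gap of the distribution, with 1 chase and 3 pulse members between 30 and 40 Cxcl12 UMIs per 10000.

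The members carried the defining niche genes of CAR cells in nearly every cell. Adipoq stood at 2074 CPM in chase and 1990 in pulse members, Cxcl12 at 25972 and 21985, and Alpl at 0 by selection. The reporter tdTomato stood at 2122 in chase and 2115 in pulse members, a ratio of 1.00 (0.987 to 1.02). After thinning every cell to 3000 UMIs, which left 1794 chase and 1877 pulse members and dropped the 266 and 173 shallower ones, tdTomato was found in 93.4% of chase and 90.0% of pulse members. In Ptprc-positive Cxcl12-low cells, a blood class that should lack the reporter, it was found in 37.1% and 44.4%, so a share of that size is read as background. That class had a median depth of 9941.5 UMIs in the chase and 6576 in the pulse library before thinning.

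Of the genes the selection did not use, Lepr and Kitl check the name of the class. Lepr, the leptin receptor (chr4:101717404-101815352, plus strand, GRCm38), had 1191 CPM in chase and 730 in pulse members, 1.63-fold higher in chase (1.59 to 1.67). Kitl (chr10:100015630-100100416, plus strand) had 2135 and 1470, a ratio of 1.45 (1.43 to 1.48). Both lay above every other class examined in both libraries. Cells just outside the limit with 1 Adipoq UMI, which form no class here, had more Lepr, at 1294 and 744 CPM. Lepr was at 786 in chase and 504 in pulse among Adipoq and Alpl double-positive cells (500 chase, 541 pulse), and at 351 and 315 among Alpl-positive Adipoq-low cells (160 chase, 136 pulse). It was at 951 and 590 among cells with at least 4 UMIs of Mrap, Cfd and Fndc1 (93 chase, 108 pulse). Kitl followed the same order for the Alpl classes, with 1606 and 929 in double-positive and 1038 and 644 in Adipoq-low cells. In thinned cells, a Lepr UMI was found in 92.1% of chase and 82.7% of pulse members (94.5% and 94.6% before thinning), against 3.86% and 2.60% of the blood class, and a Kitl UMI in 98.9% and 95.6%.

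Transcription factors of CAR cells and of the fat and bone lineages were present, whereas the fat cell gene Fabp4 was found in few members. Ebf3, which maintains the CAR state, stood at 1006 CPM in chase and 645 in pulse members, and Foxc1, which CAR cells require to form the niche, at 545 and 555. Pparg, which drives fat cell formation, stood at 55.4 and 90.9, below the 169 and 197 of cells with Mrap, Cfd or Fndc1. Cebpa, its partner, was at 289 and 285, and Runx2, the bone lineage regulator, at 241 and 255. Runx2 was at 306 and 292 in double-positive cells and at 399 and 376 in Adipoq-low cells. Lpl, the lipase that releases fatty acids from lipoproteins, stood at 1405 and 2852 in members. Fabp4, the fatty acid carrier of fat cells, was at 64.1 and 60.7 and was found in 7.36% of thinned chase and 7.25% of pulse members, under the 9.55% and 13.5% of the blood class. Its UMIs were concentrated, with 59.2% in chase and 53.8% in pulse held by the 1% of members with the most, and its level was 2.79-fold and 3.68-fold above that of double-positive cells, at 23 and 16.5 CPM.

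**Figure D1:**
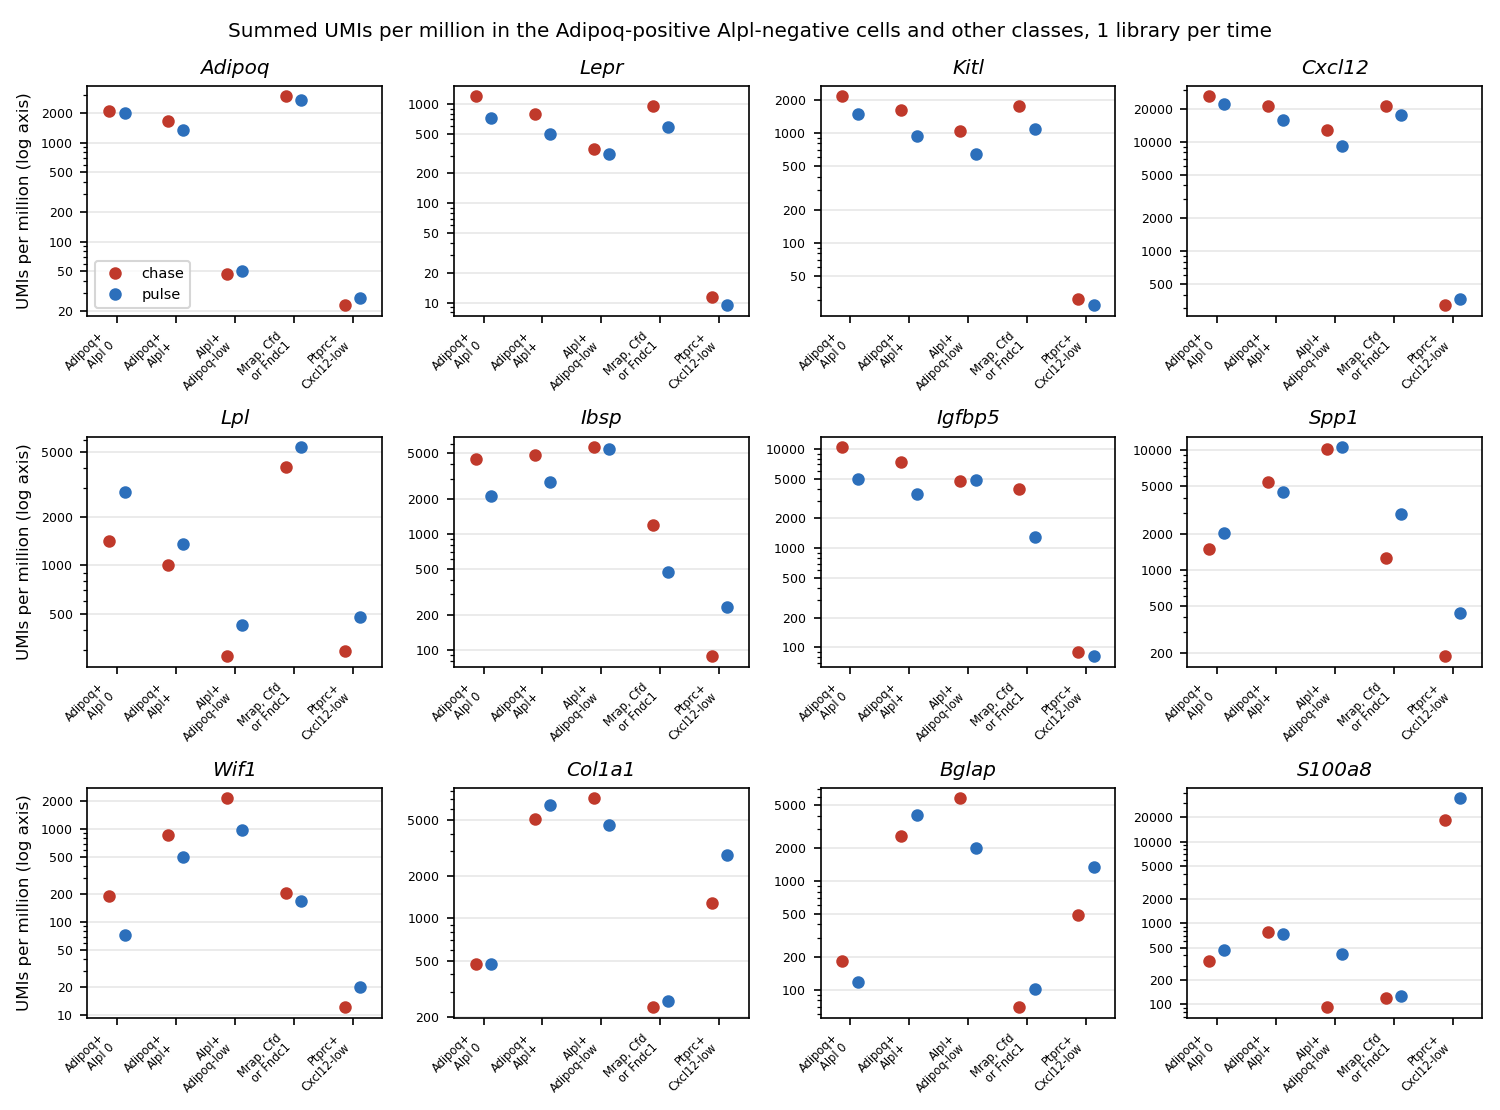
Levels of 12 genes in CPM (log axis) in the Alpl-negative members and 4 other classes, chase in red to the left of pulse in blue. Lepr and Kitl are highest in the members, whereas Wif1 and Spp1 climb from the members through the double-positive to the Adipoq-low cells, and Col1a1 and Bglap are higher in both of those classes than in the members.

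Between the libraries, 11683 genes had at least 50 UMIs in the members and were described. A gene was called when its level differed by at least 1.5-fold and the counting interval of the ratio left out 1. Of these genes, 802 (6.86%) were higher and 707 (6.05%) lower in chase members, 12.9% in either direction, and the median log2 ratio was -0.03. The genes with the highest ratios, among those with 50 CPM in the higher library, included hormone- and cytokine-responsive genes and chemokines. The genes with the lowest ratios included matrix, contractile and cytokine-signalling genes.

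Serpina3n, a secreted inhibitor of proteases that rises in acute phase responses, stood at 140 CPM in chase and 19.4 in pulse members, 7.23-fold higher in chase (6.40 to 8.18). Zbtb16, a zinc finger transcription factor induced by glucocorticoids in many cells (chr9:48654297-48836222, minus strand), stood at 80.5 and 12.3, a ratio of 6.54 (5.61 to 7.65). Fmo2, a flavin monooxygenase (chr1:162874317-162898726, minus strand), stood at 420 and 74.9, a ratio of 5.61 (5.26 to 5.97). More chase than pulse members held a UMI of each of these genes. In thinned cells a Fmo2 UMI was found in 58.0% of chase and 18.5% of pulse members (70.0% and 32.0% unthinned), against 0.965% and 0.106% of the blood class. Zbtb16 was found in 20.2% and 3.20% of members (34.2% and 8.34% unthinned), against 0.627% and 0.424% of the blood class. Serpina3n was found in 26.6% and 4.95% of members (38.3% and 10.1% unthinned), against 0.434% and 0.0530%. The other genes of this group were St6galnac2, a sialyltransferase, at 108 and 17.8 CPM, Angptl1, a secreted angiopoietin-like protein, at 114 and 23.7, and Tifa, an adaptor of NF-kappaB signalling, at 115 and 33.4. BC018473, an antisense RNA (chr11:116752167-116759373, plus strand), had 682 UMIs in chase and 2 in pulse members, a ratio of 418 (115 to 3462). It had 1862 and 4 UMIs in the blood class and 144 and 0 in double-positive cells, so it differed between the libraries outside CAR cells too. Whether the counting used strand is not stated, and a share from reads of an overlapping gene was not tested.

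Chemokines were prominent among the genes higher in chase members. Of 11 described chemokines, 8 were higher and 1 lower, with a median log2 ratio of 1.33, against -0.03 over all genes. The shares of all described genes were 6.86% higher and 6.05% lower. Cxcl1, which draws neutrophils, stood at 165 CPM in chase and 29.7 in pulse members (ratio 5.54, 5.01 to 6.13), and Ccl2, which draws monocytes, at 116 and 25.4 (ratio 4.56, 4.08 to 5.10). Cxcl10 and Cxcl9, interferon-induced chemokines that draw T cells, stood at 119 and 20.0 and at 545 and 203. Of these, Cxcl10, Cxcl9 and Ccl2 were unevenly spread over cells. The 1% of members with the most UMIs of a gene held 41.2% of chase and 90.0% of pulse Cxcl10 UMIs, and 36% and 51.9% of Ccl2 UMIs. A Cxcl1 UMI was found in 20.8% of thinned chase and 5.70% of pulse members (26.5% and 9.37% unthinned), against 1.74% and 0.901% of the blood class. A Cxcl9 UMI was found in 26.0% and 11.7% of members, against 7.43% and 4.19%. For Ccl2 the members' shares of 15.1% and 4.64% lay under those of the blood class, 16.2% and 17.3%, and for Cxcl10 the members' 9.53% and 1.49% lay under the blood class's 9.79% and 5.25%. The blood class is no clean background for these genes, since macrophages are known to make both. Cxcl14, a chemokine abundant in CAR cells, stood at 2833 and 1606 CPM.

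Genes of the interferon response, antigen presentation, acute phase and complement were called higher more often than lower in chase members. Calls over all described genes were 6.86% higher and 6.05% lower. Of 19 described interferon response genes 5 were higher and none lower, although cells with 5 or more UMIs of Ifit1, Ifit3 and Rsad2 had been left out of both libraries. Iigp1, an interferon-induced GTPase, stood at 939 CPM in chase and 323 in pulse members, a ratio of 2.91, and Trim30a at 24.2 and 10.2. Of 11 class I presentation genes 3 were higher and 0 lower, among them H2-T23 at 265 and 144, Psmb9 of the immunoproteasome at 147 and 87.5, and the peptide transporter Tap1 at 97.5 and 60.3. Of 15 acute phase and complement genes 9 were higher and 1 was lower. Haptoglobin (Hp) stood at 5834 and 2964, a ratio of 1.97, complement C3 at 241 and 73.0, and C4b, whose reads can be split with its near-identical copy C4a, at 811 and 433, whereas Cd55, which restrains complement on the cell surface, stood at 24.0 and 60.5. Among 16 inflammatory signalling genes 7 were higher and 4 lower. The interleukin 1 receptor Il1r1 stood at 238 and 125, and Il1rn, its secreted antagonist, at 266 in chase and 848 in pulse members, 3.19-fold lower in chase (3.07 to 3.31). An Il1rn UMI was found in 44.1% of thinned chase and 78.5% of pulse members (59.5% and 91.5% unthinned), against 5.60% and 9.38% of the blood class.

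In chase members 6.86% of all described genes were higher and 6.05% lower. Among 17 glucocorticoid-responsive genes 7 were higher and 1 lower, with a median log2 ratio of 0.54. Besides Zbtb16 and Fmo2 these were Ddit4 at 67.5 and 30.5 CPM, the glucocorticoid receptor chaperone Fkbp5 at 77.3 and 44.5, the leucine zipper gene Tsc22d3 at 436 and 278, and the metallothioneins Mt1 and Mt2. Not all moved together: Errfi1, an inhibitor of the EGF receptor, was 2.26-fold lower, at 660 and 1492, and Per1 (58.3 and 63.0) and Dusp1 (1395 and 1390) were not called. The metallothioneins are small cysteine-rich proteins that bind zinc and copper. Mt2 stood at 647 in chase and 162 in pulse members, a ratio of 4.00 (3.83 to 4.18), and Mt1 at 2006 and 861, a ratio of 2.33 (2.28 to 2.38). An Mt2 UMI was found in 59.7% of thinned chase and 23.9% of pulse members (64.3% and 36.4% unthinned), against 5.02% and 3.98% of the blood class. Of the 9 described genes on the list of metallothioneins and metal handling, Mt1 and Mt2 were the only 2 called.

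Mt1 and Mt2 are neighbours on chromosome 8, and their promoters are shown because both genes differed in the same direction in every CAR class examined. The sequences are RefSeq's for GRCm38.p6, from 250 bases before to 50 bases after the gene start, on the plus strand at chr8:94178839-94179138 for Mt1 and chr8:94172368-94172667 for Mt2. Capitals mark the core of the metal response element, searched as TGCACNC or TGCGCNC on both strands.
Mt1: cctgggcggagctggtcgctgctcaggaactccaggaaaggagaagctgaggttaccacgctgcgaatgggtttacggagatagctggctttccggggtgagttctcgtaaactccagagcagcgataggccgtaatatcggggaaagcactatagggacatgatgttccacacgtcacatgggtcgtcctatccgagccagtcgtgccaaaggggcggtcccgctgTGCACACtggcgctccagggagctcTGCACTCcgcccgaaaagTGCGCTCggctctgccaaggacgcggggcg
Mt2: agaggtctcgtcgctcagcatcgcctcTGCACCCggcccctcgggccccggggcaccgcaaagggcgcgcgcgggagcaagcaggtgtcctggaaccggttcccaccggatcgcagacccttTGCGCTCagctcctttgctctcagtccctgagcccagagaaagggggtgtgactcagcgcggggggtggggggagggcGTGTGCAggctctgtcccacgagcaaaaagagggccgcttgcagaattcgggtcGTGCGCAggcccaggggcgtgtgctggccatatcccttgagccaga
The Mt1 window holds 3 matches, all on the shown strand, and the Mt2 window 4, of which 2 are on the other strand. The matches do not overlap each other. At least 1 match occurs in 25.7% of the 32851 promoter windows of the same length, so a match alone is common. In double-positive cells Mt1 stood at 1308 CPM in chase and 517 in pulse, and Mt2 at 348 and 84.5. In Adipoq-low cells Mt1 stood at 661 and 244 and Mt2 at 174 and 19.8, and in cells with Mrap, Cfd or Fndc1 at 1619 and 1192 and at 481 and 239. Both genes were higher in the Alpl-negative members than in either Alpl-positive class of the same library, and in the pulse library the cells with Mrap, Cfd or Fndc1 were above the members.

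Clock genes differed in both directions. Of 17 described, 9 were higher and 3 lower in chase members, against 6.86% and 6.05% of all described genes. Dbp, a D-box activator and output of the clock, stood at 124 CPM in chase and 32.0 in pulse members, a ratio of 3.87 (3.50 to 4.28). It was found in 28.7% of thinned chase and 8.36% of pulse members (44.8% and 17.9% unthinned), against 3.18% and 3.13% of the blood class. Its relatives Tef (99.0 and 48.2) and Hlf (27.5 and 11.2) and the repressors Per2 (29.1 and 10.6) and Per3 (74.5 and 32.4) were on the same side. Nfil3, which represses D-box genes, was lower in chase members at 37.7 and 73.4, as were Arntl (3.47 and 7.92) and Npas2 (4.09 and 7.98), activators of the core loop. The labels give no time of day for either harvest. The Per3 promoter is shown because, of the 7 higher clock genes with a RefSeq promoter window, it was the 1 that held the D-box, searched as TTATGTAA on both strands and marked in capitals. The window is chr4:151044616-151044915 on the minus strand of GRCm38.p6.
Per3: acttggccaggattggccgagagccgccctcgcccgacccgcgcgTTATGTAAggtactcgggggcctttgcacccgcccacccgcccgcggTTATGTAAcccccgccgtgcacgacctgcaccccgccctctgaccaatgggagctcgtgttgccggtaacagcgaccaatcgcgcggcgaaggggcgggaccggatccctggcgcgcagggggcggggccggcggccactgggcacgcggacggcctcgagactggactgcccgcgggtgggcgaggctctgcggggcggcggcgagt
It holds 2 separate copies, and 0.938% of the 32851 windows hold at least 1. None of the 3 lower clock genes and none of the 5 uncalled ones with a window held it. The E-box CACGTG was in 2 of the 7 higher genes (Tef and Bhlhe41), in 0 of the 3 lower and in 2 of the 5 uncalled ones, and in 7.15% of all windows.

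**Figure D2:**
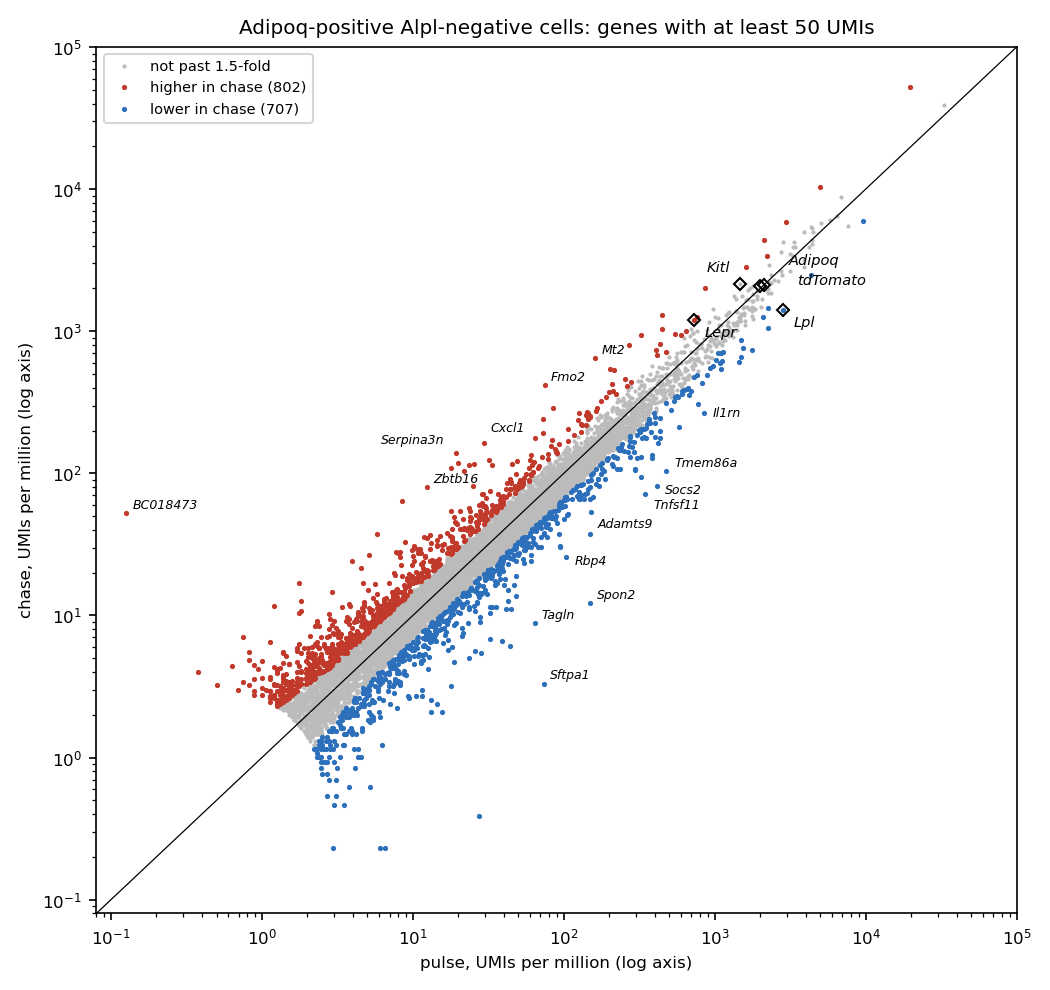
Level of each described gene in Alpl-negative members of the chase library (vertical) against the pulse library (horizontal), in CPM on log axes. The 802 genes called higher in chase are red, the 707 called lower are blue, and named genes are labelled.

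Genes lower in chase members included secreted matrix and signalling proteins. Sftpa1, surfactant protein A, stood at 3.32 CPM in chase and 73.6 in pulse members, 22.2-fold lower in chase (16.4 to 30.8). Spon2, a secreted matrix protein (chr5:33198184-33218455, minus strand), stood at 12.3 and 150, 12.2-fold lower (10.4 to 14.4). Tnfsf11, which encodes the osteoclast-forming cytokine RANKL (chr14:78277445-78308043, minus strand), stood at 71.3 and 346, 4.85-fold lower (4.52 to 5.21). The shares of cells that held these genes differed too. A Tnfsf11 UMI was found in 16.2% of thinned chase and 54.1% of pulse members (27.1% and 72.0% unthinned), against 1.01% and 2.07% of the blood class. A Spon2 UMI was found in 3.73% and 33.0% of members (6.84% and 55.2% unthinned), against 0.0482% and 0.689%. Also among the 12 lowest ratios were Tmem86a, an enzyme of plasmalogen breakdown, at 104 and 474 CPM, the retinol carrier Rbp4 at 25.8 and 104, the protease Adamts9 at 37.2 and 148, the fibrillin Fbn2 at 30.3 and 94.7, and the annexin Anxa3 at 30.7 and 94.1.

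Growth hormone and insulin-like growth factor genes fell mainly on the lower side, with 2 of 12 higher and 6 lower. The shares over all described genes were 6.86% higher and 6.05% lower. Socs2, a feedback inhibitor induced by growth hormone through STAT5 (chr10:95385362-95417180, minus strand), stood at 81.9 CPM in chase and 411 in pulse members, 5.02-fold lower (4.71 to 5.36). A Socs2 UMI was found in 19.2% of thinned chase and 66.1% of pulse members (32.3% and 84.6% unthinned), against 3.23% and 3.34% of the blood class. The growth hormone receptor Ghr stood at 310 and 774, Igf1 at 245 and 433, the binding protein Igfbp3 at 164 and 418, and Cish, another STAT5-induced inhibitor, at 16.4 and 46.6. One binding protein went the other way: Igfbp5 stood at 10385 in chase and 5003 in pulse members. Stat5a itself was higher in chase, at 53.7 and 30.6.

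Contractile genes had the lowest median of the described lists, a log2 ratio of -0.91, with 1 of 12 higher and 9 lower. Across all described genes 6.86% were higher and 6.05% lower. Tagln, an actin-binding protein of smooth muscle, stood at 8.79 CPM in chase and 64.5 in pulse members, and the myosin light chain Myl9 at 94.2 and 325. The tropomyosins Tpm2 and Tpm4 stood at 53.3 and 151 and at 179 and 433, and filamin A (Flna) at 178 and 349. A Myl9 UMI was found in 23% of thinned chase and 55.0% of pulse members. Of 15 collagen genes 8 were lower and none higher (median log2 ratio -0.68), with Col8a1 at 595 and 1079, Col6a2 at 355 and 670, Col12a1 at 65.8 and 150, and Col3a1 at 37.2 and 92.2. The collagen of bone, Col1a1, was at 472 in both libraries. Of 26 matrix glycoproteins and proteoglycans 2 were higher and 10 lower, among them fibrillin 1 (Fbn1) at 619 and 1117 and fibronectin (Fn1) at 11.2 and 44.6. Of 20 matrix proteases and their inhibitors none was higher and 8 were lower, including the collagenase Mmp13 at 540 and 1092, Adamts5 at 68.6 and 155, and the inhibitor Timp4 at 30.5 and 70.4.

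The factors by which CAR cells feed blood cells did not share a direction. Of 16 described niche factors 3 were higher and 4 lower, with a median log2 ratio of -0.07. Among all described genes the shares were 6.86% and 6.05%. Higher were Lepr and Il34, a ligand of the CSF1 receptor, at 274 CPM in chase and 163 in pulse members, and Tnfsf13b, the B cell survival factor, at 15.2 and 5.03. Lower were Il7, which B cell precursors require, at 91.7 and 189, Igf1, the angiopoietin Angpt1 at 141 and 267, and Ptn at 1.85 and 5.40. Il7 was found in 23.4% of thinned chase and 40.5% of pulse members, and Il34 in 50.6% and 35.5%. Kitl missed the 1.5-fold limit, and Csf1 (604 and 646), Vcam1 (1628 and 1760) and Bmp4 (426 and 475) were not called.

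Some fat and bone lineage genes differed, in both directions. Lpl was 2.03-fold lower in chase members (2.00 to 2.07), and Pparg 1.64-fold lower, whereas Lpin1, a phosphatidate phosphatase, was higher at 52.1 and 30.2 CPM. Of 20 lipid genes 2 were higher and 1 lower, and of 13 adipogenic regulators 1 was higher and 1 lower. The shares over all described genes were 6.86% and 6.05%, so such small counts do not set these lists apart. Of 11 osteogenic regulators Dlx5 was lower, at 48.0 and 87.0, and none was higher, with Sp7, the osteoblast factor, at 18.6 and 21.9. Of 14 bone matrix genes 4 were higher and 1 lower. Ibsp, bone sialoprotein (chr5:104299171-104311469, plus strand), stood at 4415 in chase and 2127 in pulse members, a ratio of 2.08 (2.05 to 2.1), and was found in 87.2% of thinned chase and 71.0% of pulse members, against 11.9% and 12.4% of the blood class. Phex, a phosphate-regulating endopeptidase, stood at 43.7 and 19.5, and the proteoglycan Omd was lower at 14.2 and 30.9. Wif1 was 2.62-fold higher, at 192 and 73.1, and was found in 38.4% of thinned chase and 15.9% of pulse members. Spp1, osteopontin, stood at 1483 and 2022. Bglap, osteocalcin, stood at 185 and 117 summed over cells, but its ratio of 1.59 became 0.793 once the 22 chase and 31 pulse members with at least 5 osteocalcin UMIs were left out. Its share of thinned members, 21.0% and 28.0%, was close to the 19.9% and 30.8% of the blood class.

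Other lists held calls in both directions or in a single direction. Over all described genes 6.86% were higher and 6.05% lower in chase members. Of 17 Wnt pathway genes 3 were higher and 4 lower, including the Wnt amplifier Rspo3 at 200 CPM in chase and 435 in pulse members and Sfrp4, a secreted Wnt inhibitor, at 716 and 475. Of 30 BMP and TGF-beta genes none was higher and 3 lower, among them Tgfb2 at 23.2 and 54.5 and follistatin-like 1 (Fstl1) at 1450 and 2260. Of 12 CAR transcription factors 3 were higher and none lower, including Ebf3, 1.56-fold higher, and Zeb2 at 941 and 594. Of 22 immediate early genes 4 were higher and 1 lower: Ier3 stood at 534 and 215, Myc at 129 and 72.1, Fosl2 at 120 and 63.6, and Junb at 3362 and 2214, whereas Atf3 was lower at 130 and 276. Of 13 heat shock genes 3 were lower and none higher, with Hspb1 at 79.9 and 149.

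**Figure D3:**
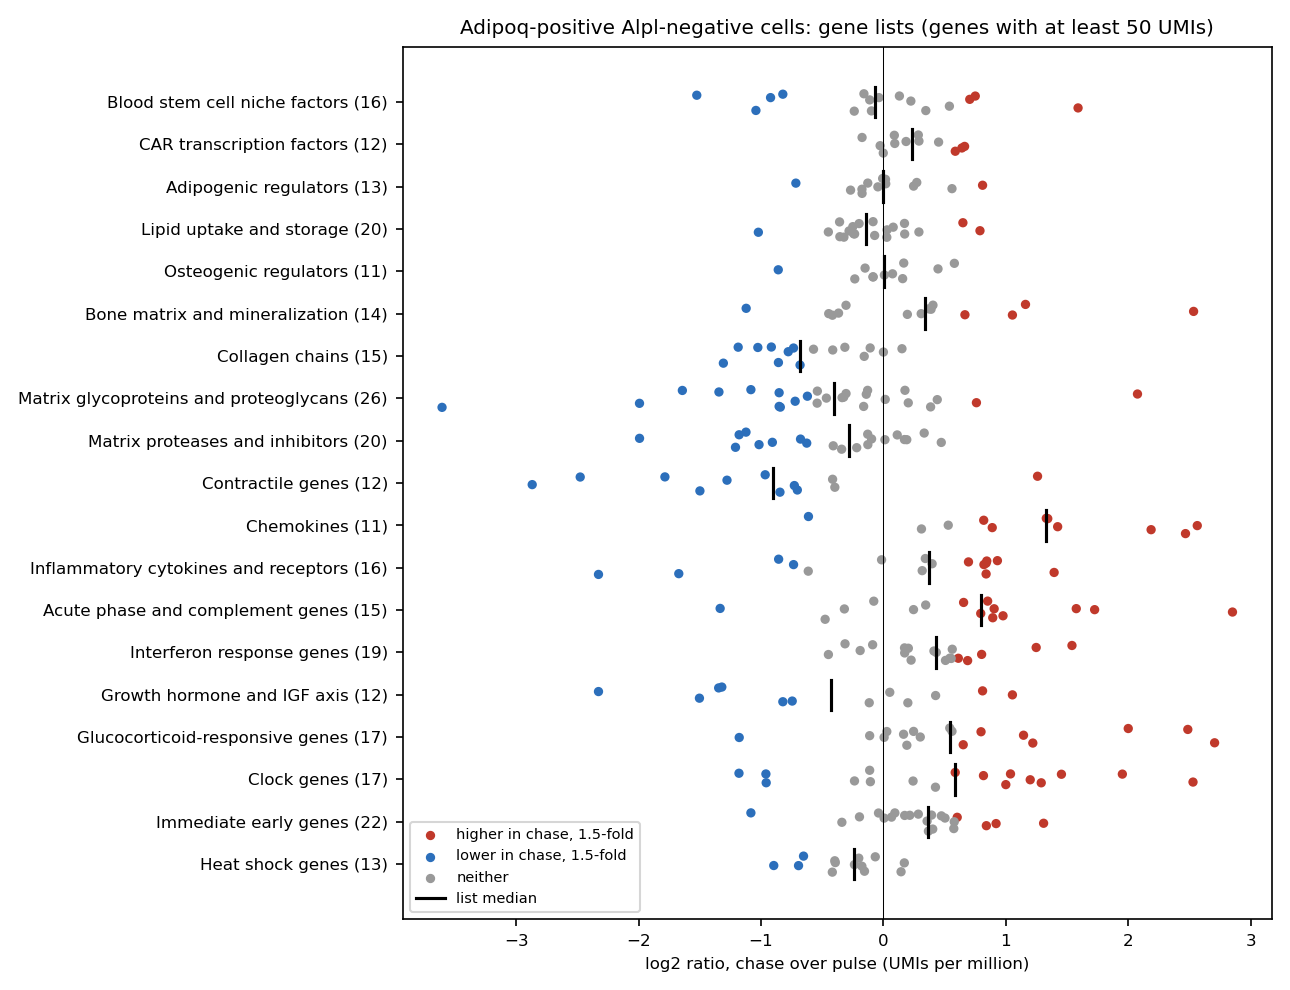
Log2 ratio of chase over pulse in Alpl-negative members for each described gene of 19 lists (dots on the horizontal axis, red where higher, blue where lower and grey where not called), with the median of the list as a bar. Chemokine, clock and acute phase medians lie to the right of 0, contractile and collagen medians to the left.

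Blood cell RNAs in the members differed between the libraries in both directions. Of 12 described blood-lineage markers 6 were higher and 2 lower in chase members, against 6.86% and 6.05% of all described genes. Their summed level was 1268 CPM in chase and 1227 in pulse members, with Ptprc at 0 by selection. The immunoglobulin genes were higher in chase, with Igkc at 103 and 21.9 and Igha at 63.4 and 8.48, and they were higher in the chase blood class too, at 2299 and 580 and at 787 and 164. Igkc was found in 23.5% of thinned chase and 6.02% of pulse members, under the 26.2% and 12.1% of the blood class. Members with at least 5 UMIs of the neutrophil genes S100a8, S100a9, Ngp and Camp numbered 193 in chase (9.37%, 8.14 to 10.7) and 356 in pulse (17.4%, 15.7 to 19.1), and held 72.8% and 81.8% of those UMIs. Without them 733 genes were higher and 689 lower, of which 668 and 612 were among the calls above. Endothelial markers summed to 20.4 and 10.5 CPM, with Cdh5 at 0 by selection. Pericyte markers summed to 221 and 172, and Schwann cell markers to 134 and 108, almost all of it S100b, with Sox10 and Ngfr at 0 in both libraries. Chondrocyte and fibroblast markers summed to 59.1 and 38.9, with Acan and Dpt at 0. Apart from the neutrophil genes, the part of these RNAs in the differences was not tested.

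The named differences were compared with those in other cells of the same libraries. All of the 12 highest and all of the 12 lowest genes were past 1.5-fold the same way in double-positive cells. In cells with Mrap, Cfd or Fndc1 this held for 11 of 11 described genes in each direction, and in Adipoq-low cells for 5 of 5 higher and 10 of 12 lower genes, the exceptions being Tnfsf11 and Adamts9. In the blood class it held for 6 of 10 higher and 8 of 10 lower genes, and in Cdh5-positive cells for 4 of 7 and 2 of 6. None went past 1.5-fold the other way. Zbtb16 stood at 52.8 CPM in chase and 5.09 in pulse double-positive cells, Fmo2 at 224 and 25.6, Socs2 at 91.8 and 266, and Tnfsf11 at 99.7 and 241. Of the 12 highest genes, only those 5 had enough UMIs to be described in Adipoq-low cells. Some smaller differences of the members were not past 1.5-fold in every other class. Lpl, 2.03-fold lower in chase members, was 1.34-fold lower in double-positive cells and 1.32-fold lower in cells with Mrap, Cfd or Fndc1. It was 1.55-fold lower in Adipoq-low cells, 1.63-fold in the blood class and 1.58-fold in Cdh5-positive cells. Pparg was 1.64-fold lower in members, against 1.40-fold in double-positive cells, 1.16-fold in cells with Mrap, Cfd or Fndc1 and 1.28-fold in Adipoq-low cells. Lepr was 1.63-fold higher in members, 1.56-fold in double-positive cells, 1.61-fold in cells with Mrap, Cfd or Fndc1 and 1.12-fold in Adipoq-low cells. Whether the differences vary in size between classes was not tested.

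**Figure D4:**
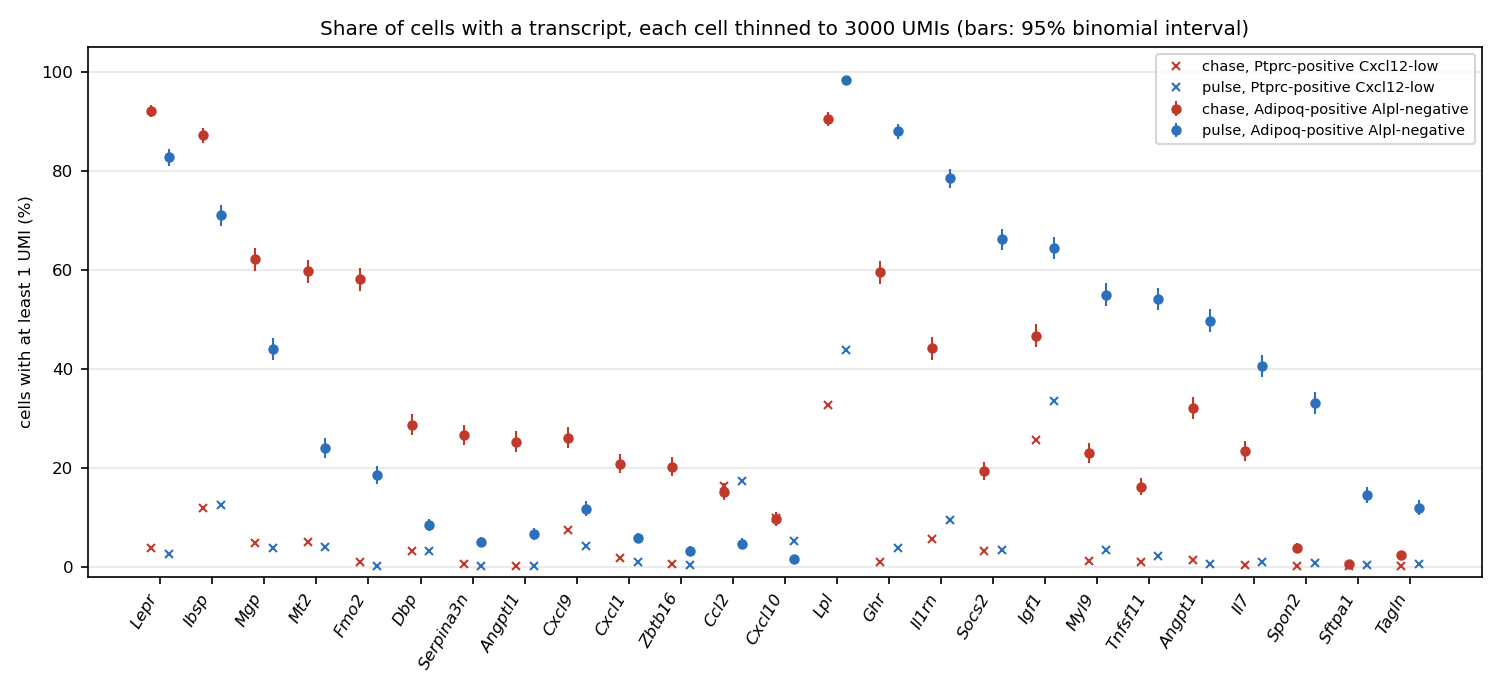
Percentage of Alpl-negative members with at least 1 UMI of 25 genes after thinning to 3000 UMIs per cell, chase in red and pulse in blue with 95% binomial bars for counting error. Crosses give the share in Ptprc-positive Cxcl12-low cells, which for Ccl2 and Cxcl10 is higher than in the members of both libraries.

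Set against the double-positive cells, which met the same criteria except for at least 2 Alpl UMIs, the members differed in a limited set of genes. Genes used for selection were left out of the comparison, and it is a description because Alpl, a gene of the same cells, drew the line. The double-positive cells were also deeper, with median depths of 8166.5 UMIs in chase and 9705 in pulse. Of 10846 genes described in both libraries, 166 (1.53%) were at least 1.5-fold higher in members in both and 273 (2.52%) lower in both. Bone matrix and osteogenic genes made up the strongest contrasts. Bglap was 14-fold lower in chase and 34.8-fold lower in pulse members, and Col1a1 10.7-fold and 13.6-fold lower. The shares of cells with a UMI differed far less than these summed levels. After thinning, a Bglap UMI was found in 21.0% of members and 27.0% of double-positive cells in chase, and in 28.0% and 33.6% in pulse, near the 19.9% and 30.8% of the blood class. A Col1a1 UMI was found in 56.4% and 63.6% in chase and in 58.9% and 69.3% in pulse, against 47.0% and 58.5% of the blood class. Smpd3, a sphingomyelinase needed for mineralisation, was 21.0-fold and 14.3-fold lower, and Car3, carbonic anhydrase 3, 19.8-fold and 25.1-fold lower. Bglap2, the neighbouring osteocalcin gene that shares sequence with Bglap, was 17.6-fold and 38.3-fold lower. Of 11 osteogenic regulators 7 were lower in both libraries and none higher, among them Sp7 (3.70-fold in chase, 3.24-fold in pulse) and Mef2c (3.66-fold and 3.04-fold). Of 13 bone matrix genes 8 were lower and none higher.

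Not every bone gene was past 1.5-fold on that side. Ibsp differed little between members and double-positive cells, at 4415 against 4745 CPM in chase and 2127 against 2816 in pulse. Runx2 was at 0.787 of the double-positive level in chase and 0.875 in pulse. Wif1 did pass that limit, 4.46-fold lower in chase and 6.91-fold lower in pulse members, as did Spp1, 3.65-fold and 2.22-fold lower. Igfbp5 was 1.42-fold higher in members in both libraries.

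Genes higher in members than in double-positive cells included several that encode secreted proteins. Apod, a lipid-carrying apolipoprotein, stood at 143 CPM in members and 38.0 in double-positive cells of the chase library, and at 88.2 and 21.1 in pulse. Chrdl1, a secreted BMP antagonist, stood at 955 and 489 in chase and at 892 and 308 in pulse, and Itih5, a hyaluronan-binding protein, at 362 and 145 and at 502 and 214. The Wnt inhibitor Sfrp4 was 2.16-fold higher in chase and 1.97-fold in pulse, the matrix protein Efemp1 2.37-fold and 2.51-fold, and Deptor, an mTOR inhibitor, 2.45-fold and 2.03-fold. Lepr was 1.51-fold higher in chase and 1.45-fold in pulse, Lpl 1.40-fold and 2.12-fold, and Kitl 1.33-fold and 1.58-fold. Pparg and Cebpa differed less, at 1.14-fold and 1.34-fold and at 1.02-fold and 1.32-fold. Over all genes described in both libraries 1.53% were higher in members in both and 2.52% lower. Of 14 acute phase and complement genes 7 were higher in members in both libraries and 1 lower, with Hp 1.83-fold and 1.71-fold higher. Of 17 glucocorticoid-responsive genes 5 were higher and 1 lower, Mt2 by 1.86-fold and 1.92-fold.

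**Figure D5:**
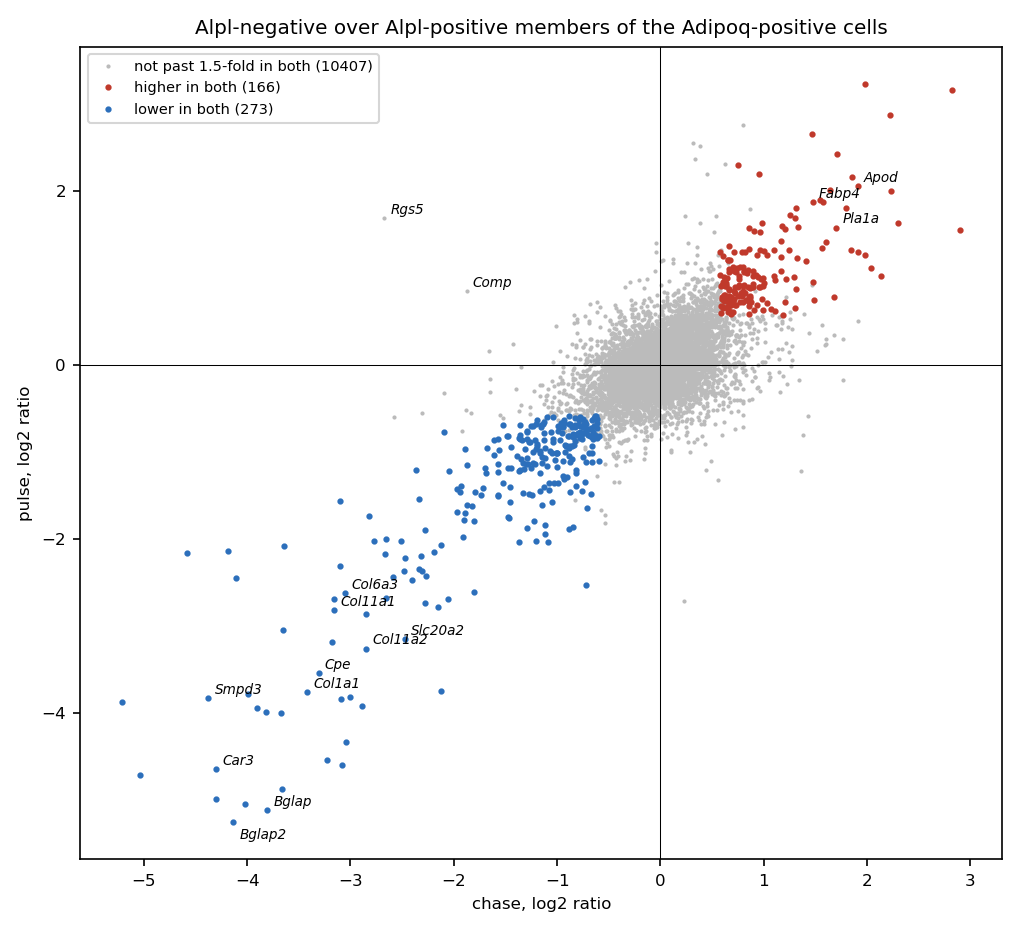
Log2 ratio of Alpl-negative members over Adipoq and Alpl double-positive cells in the chase library (horizontal) and in the pulse library (vertical) for 10846 genes. The 166 genes higher in both libraries are red and the 273 lower in both are blue. Rgs5 and Comp are among the genes past 1.5-fold in opposite directions.

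The contrast widened against Alpl-positive Adipoq-low cells. Adipoq and Alpl drew this line, so the comparison is again a description. Of 10462 genes, 612 (5.85%) were higher in members in both libraries and 429 (4.1%) lower. Apod was 55.0-fold higher in chase and 48.9-fold in pulse members, Chrdl1 21.6-fold and 27.5-fold, and Igfbp3 9.47-fold and 10.1-fold. Periostin (Postn), a matrix protein of bone-forming cells, stood at 3.01 CPM in members against 315 in Adipoq-low cells of the chase library, and at 0.691 against 164 in pulse. Lepr was 3.39-fold higher in chase and 2.32-fold in pulse members, Kitl 2.06-fold and 2.28-fold, Lpl 5.12-fold and 6.73-fold, Pparg 2.90-fold and 3.73-fold, and Hp 5.12-fold and 3.38-fold. Immediate early genes also differed, with 19 of 22 higher in members in both libraries, where mitochondrial UMIs were 3.21% in members and 5.37% in Adipoq-low cells of the chase library and 3.16% and 4.94% in pulse. The part of these quality values in the difference was not tested.

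Cells with Mrap, Cfd or Fndc1 bordered the members on the fat side. Those genes drew the line and were left out of the comparison, which is therefore a description. Of 10415 genes, 167 (1.6%) were higher in members in both libraries and 203 (1.95%) lower. Of 20 lipid genes 14 were lower in members and none higher. Perilipin 1 (Plin1), which coats lipid droplets, was 43.6-fold lower in chase and 70.0-fold lower in pulse members, Fabp4 28.4-fold and 35.3-fold, and the desaturase Scd1 17.2-fold and 13-fold. Lpl was 2.89-fold and 1.88-fold lower. Higher in members were Ibsp, 3.71-fold in chase and 4.53-fold in pulse, the BMP ligand Bmp6, 2.76-fold and 3.01-fold, the proteoglycan Ogn, 2.76-fold and 3.06-fold, Runx2, 1.58-fold and 1.59-fold, and Igfbp5, at 10385 against 3986 CPM in chase and 5003 against 1311 in pulse. Car3 was lower in members than in both the double-positive and the fat-side cells, 47.9-fold and 47.5-fold against the cells with Mrap, Cfd or Fndc1.

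Within the class, a small number of genes varied strongly between cells, and weaker variation beyond counting noise was not counted. After thinning, the variance of a gene over its mean had a median of 1.05 in chase and 1.04 in pulse members, where counting noise alone gives about 1, and 111 of 6611 genes (1.68%) were above 2 in both. Part of these were genes typical of other cells: the neutrophil gene S100a8 reached 127 and 226, with 56.3% of its UMIs in chase and 72.8% in pulse held by the 1% of members with the most. Genes that CAR cells make varied as well. Igfbp5 had a ratio of 15.9 in chase and 11.7 in pulse members, with a median of 26 UMIs per thinned cell (5th to 95th percentile 5 to 73) in chase and 12 (0 to 41) in pulse. Ibsp had ratios of 11 and 11.5, with a median of 11 UMIs (0 to 37) in chase and 3 (0 to 23) in pulse. Cxcl9, at 28.6 and 29.6, was concentrated in few cells, whereas Lepr had ratios of 2.06 and 1.63 and Kitl of 1.99 and 1.70. Other niche genes were above 2 in both libraries, with 3.99 and 3.83 for Cxcl12, 3.60 and 3.39 for Cxcl14, and 2.45 and 2.09 for Vcam1. Lpl had ratios of 3.95 and 4.72, with medians of 3 (0 to 11) and 7 (1 to 20) UMIs. Ebf3, at 1.56 and 1.32, and Foxc1, at 1.43 and 1.31, lay under 2 but above the medians over all genes.

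Adipoq itself, the selecting gene, had a variance over mean of 2.41 in chase and 2.71 in pulse members, with a median of 6 UMIs per thinned cell (1 to 14) and of 5 (1 to 14). Members were divided by their thinned Adipoq count into low (0 to 4 UMIs), middle (5 to 7) and high (8 or more) bands of 690, 539 and 565 chase and 757, 541 and 579 pulse cells. Such a band is a range of 1 gene and not a cell type. Few genes followed it: of 9616, 9 (0.0936%) were at least 1.5-fold higher in the high than in the low band in both libraries and 33 (0.343%) lower. Tspo, a mitochondrial cholesterol-binding protein, was 1.72-fold higher in the high band of chase and 1.76-fold in pulse, and Apoe 1.44-fold and 1.45-fold. Lpl was 1.36-fold and 1.45-fold higher and the iron carrier Trf 1.33-fold and 1.48-fold. Lepr, at 0.857 and 0.979 of the low band, and Kitl, at 0.950 and 1.00, did not follow Adipoq. Col1a1 was at 0.373 and 0.497 of its low-band level, and S100a8 at 0.395 and 0.211, so both were highest where Adipoq was lowest.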

How the data were processed

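The authors deposited 1 matrix per library of raw UMI counts, not normalised, over 32286 features that include tdTomato. Per the labels' protocols the libraries were made with a 10x Genomics 3' kit. Per the file headers Cell Ranger 6.0.2 made the counts, whereas the submitters' processing notes name 2.1.1 and build mm10. No annotation release was found in the sources used here. The members, gene lists and comparisons were chosen with earlier results of these data known.

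UMIs were summed per library and class over the members defined in the results, and genes with at least 50 UMIs over both groups were described. Ratios carry an exact interval conditional on the total, levels exact Poisson intervals, and shares exact (Clopper-Pearson) binomial intervals. Log2 ratios carry a prior count of 0.5. A count of 0 was set against 3 counts. The 16 selecting genes were left out of comparisons between classes. Cells were thinned to 3000 UMIs for shares and variances (2000 as an alternative). The blood class had at least 2 Ptprc UMIs and under 30 Cxcl12 UMIs per 10000, and the endothelial class at least 2 Cdh5 UMIs. Adipoq-low cells had at most 1 Adipoq and at least 2 Alpl UMIs. Scrublet was run per library in scanpy 1.11.5 as an alternative only.

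Named genes were the 12 highest and 12 lowest ratios of chase over pulse at 50 CPM or more in the higher library, without mitochondrial, ribosomal, predicted and immunoglobulin genes. For classes they were the 10 and 10 with the largest smaller log2 ratio of both libraries (the same rule was added later for cells with Mrap, Cfd or Fndc1), for variation the 12 highest variances over mean, and from each list up to 5 genes with the largest ratio and at least 20 CPM. Adipoq, Lepr, Cxcl12, Kitl, Alpl, Lpl, Pparg, Cebpa, Ebf3, Foxc1, Runx2, tdTomato, Mt1 and Mt2 were always named. A gene that this rule took against double-positive cells is not reported here. Wif1, Spp1, Bglap, Col1a1, Sp7, Mef2c, Fabp4, Hp, Igfbp5, Ibsp, S100a8, Igkc and the genes of the background values were named after their values were seen, as were the uncalled and low-level list members. Gene positions come from GENCODE vM21, matched by Ensembl identifier, and count from 1. The ratio and calling steps were checked on simulated counts, and the thinning step on cells of the pulse library. Python 3.11.15, numpy 2.4.6, scipy 1.17.1 and pandas 2.3.3 were used.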

Additional observations from a re-analysis of the deposited data

Results flagged for a closer look

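Some genes of the Alpl-negative members lay past 1.5-fold in opposite directions in the libraries when set against the Adipoq and Alpl double-positive cells. Of these, Rgs5 and Comp are members of the gene lists and Smoc2 is not. The difference between the libraries was not tested. Rgs5, a regulator of G-protein signalling and a pericyte marker, stood at 11.6 CPM in members and 73.9 in double-positive cells of the chase library, a ratio of 0.157. In the pulse library it stood at 4.78 and 1.40, a ratio of 3.40, with few UMIs behind the lower level. Comp, a cartilage matrix protein, stood at 12.3 and 45.3 in the chase library, a ratio of 0.272. In pulse it stood at 9.30 and 5.09, a ratio of 1.83. Smoc2 stood at 43.6 and 28.3 in chase, a ratio of 1.54, and at 75.8 and 120 in pulse, a ratio of 0.634.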

How the results depend on the processing

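With 1 library per group no replicate could be left out, and every value rests on those 2 libraries. Counts of called genes depended most on the size of ratio required. At a ratio of 2, 290 genes were higher and 224 lower in chase members; 43 were higher and 127 lower than in double-positive cells, 363 and 228 against Adipoq-low cells, and 68 and 99 against cells with Mrap, Cfd or Fndc1. With cells of 5000 to 12000 UMIs only, 111 genes were higher in members than in the cells with Mrap, Cfd or Fndc1, of which 92 were among the original calls. Under the other settings run, the counts of chase over pulse were 699 to 1040 higher and 589 to 831 lower, and those against double-positive cells 122 to 185 and 184 to 367. Leaving Gm42418, Lars2 and mitochondrial genes out of the totals, a choice made after seeing the data like the neutrophil, osteocalcin and shared-barcode settings, gave 952 higher and 589 lower, and centring the ratios gave 881 and 644. The ratio of Bglap reversed, from 1.59 to 0.806 with cells of 5000 to 12000 UMIs and to 0.793 without members that held osteocalcin transcripts, and the cause of the depth result was not tested. Of 168 named genes followed, 18 crossed the calling limit under a setting other than the ratio of 2. No paired analysis was possible because each group has 1 library and no result comes from a test.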

Other observations

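Some of the largest differences between the libraries lay in RNAs that were not particular to CAR cells. Gm42418, a transcript that overlaps ribosomal RNA sequence, stood at 52443 CPM in chase and 19609 in pulse members, at 44182 and 15950 in double-positive cells and at 26035 and 9570 in the blood class. Lars2, the mitochondrial leucine tRNA ligase, stood at 1036 and 448 in members. Jchain, which joins secreted antibodies, stood at 12.6 CPM and 1.82 in members and at 377 and 43.3 in the blood class. These genes were chosen after their values were seen. Members with at least 5 UMIs of Igkc, Igha and Jchain numbered 33 in the chase library (1.60%) and 3 in the pulse library (0.146%).

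Further lists were counted in members, where 6.86% of all described genes were higher and 6.05% lower in chase. Of 19 cholesterol synthesis genes 2 were higher and none lower in chase members, of 9 Notch genes 2 were higher, with Notch3 at 169 CPM in chase and 107 in pulse, and of 16 axon guidance genes 4 were lower and none higher. Of 11 retinoid genes 2 were lower, among them the retinoic acid synthesising enzyme Aldh1a2 at 180 and 403. Of 15 hypoxia genes 2 were higher and 1 lower, and of 14 VEGF, angiopoietin and PDGF genes 2 were higher and 1 lower. Of 3 flavin monooxygenases 2 were higher, and of 6 genes of the RANKL group 2 were lower.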
